A study of Rattus with 12 samples.

Results

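The oxidative phosphorylation (OXPHOS) subunits are the nucleus-encoded proteins that build complexes I to IV of the mitochondrial respiratory chain and the ATP synthase, complex V. They were taken from the count table by symbol: every symbol that begins with Ndufa, Ndufb, Ndufc, Ndufs, Ndufv, Uqcr, Cox4 to Cox8 or Atp5, and Sdha, Sdhb, Sdhc and Sdhd, without the assembly factors of the Ndufaf series. This gave 81 of the 17337 genes listed, of which 78 passed the filter on low counts and were tested. By complex, 34 belonged to complex I, 4 to complex II, 8 to complex III, 17 to complex IV and 15 to complex V. The other 3 carry a matching symbol and were not counted as subunits. They are Atp5sl (current symbol Dmac2), which is related to assembly of the membrane arm of complex I, Atp5s (current symbol Dmac2l) and the pseudogene Cox6c-ps1. Cox6c-ps1 and the testis isoform Cox8c had no count in any culture, and the muscle isoform Cox8b had 0 to 15 counts and was not tested.

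In the respiratory chain, complex I takes electrons from NADH and complex II from succinate, and complex III passes them through cytochrome c to complex IV, which reduces oxygen to water. Complexes I, III and IV pump protons out of the mitochondrial matrix, and complex V uses their return to make ATP. In brain tissue, most of the ATP that neurons spend on ion pumping and synaptic transmission is made this way, whereas astrocytes rely more on glycolysis. Several complex IV subunits have alternative isoforms that are expressed in particular tissues or under low oxygen. Some subunits of the complexes are encoded by mitochondrial DNA. The table listed 0 genes of that group, so these were not analysed here.

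The study asked how complex cultures of brain cells respond to several days of the opioid fentanyl at a low and at a high concentration. Each culture was seeded with primary rat (Sprague Dawley) cortical neurons, astrocytes and oligodendrocyte precursor cells, bought from suppliers and grown together. The cultures were thus seeded as a defined mixture and do not model a brain region with its vessels and immune cells. The 12 cultures fall into 3 conditions of 4: untreated cultures A, G, M and P kept without fentanyl, low dose cultures B, H, N and Q with 0.01 μM fentanyl for 4 days, and high dose cultures C, I, O and R with 10 μM fentanyl for 4 days. All were seeded with the same cell types and carried no genetic change, and poly(A) RNA was sequenced in bulk from each. The labels give neither separate preparations nor a pairing, so p-values measure only the spread between these cultures. The letters run consecutively across the conditions, which gives the letter sets A-B-C, G-H-I, then M-N-O, and last P-Q-R. Values are also compared inside each set, as a description.

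Total counts ranged from 12059872 to 17023909 in the untreated, from 12907388 to 16512387 in the low dose and from 15102785 to 24813893 in the high dose cultures. Markers of the 3 labelled cell types were counted in every culture, but untreated culture G stood apart: its mean over 12 neuronal markers was 3.83 on the log2(CPM + 1) scale, against 7.42 to 8.10 in the other cultures, where CPM is the count scaled to a common library size. All 12 neuronal markers were lower in G than in H, by a median of 4.13 (log2), and all were lower in G than in I. The mean over 8 microglial markers, a cell type that was not seeded, ranged from 1.65 to 1.80 in P, Q and R and from 3.63 to 5.77 in the other cultures. The mean over the 7 fibroblast and mural cell markers tested reached 6.28 in G and 6.95 in N and was 2.58 to 4.75 elsewhere. Astrocyte markers ranged from 7.13 to 9.01 and endothelial markers, 2 of 5 tested, from 0.93 to 2.30. In bulk RNA, fewer cells of a type and less RNA per cell cannot be told apart.

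OXPHOS transcripts did not pass the test in any of the 3 comparisons. In the quasi-likelihood test of edgeR, 0 of 78 members were called in each of the 3 comparisons: either dose against untreated, and the doses against each other. A call needed an adjusted p below 0.05 with a log2 fold change beyond 0.5, up or down. The background was the same, 0% of the 12271 genes tested in each comparison. DESeq2 also called 0 members in each, but its share over all genes is not given here. At the same thresholds, the study reported differentially expressed genes in each comparison, so its calls over all genes were not recovered by the edgeR fit. Without adjustment, a p under 0.05 was reached by 0 members for low dose vs. untreated (0.742% of all genes), by 0 for high dose vs. untreated (1.19%) and by 1, Atp5s, for high dose vs. low dose (1.17%).

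The members varied little between cultures. Over the 12 cultures, the SD of log2(CPM + 1) had a median of 0.154 among the members and of 0.297 among all genes tested, and 74 of 78 members were under 0.3. Ndufs1 had the lowest SD, 0.091. The 4 members above 0.3 were Ndufa4l2 at 0.73, Cox6b2 at 0.77, Cox4i2 at 1.43 and Cox6a2 at 1.72, all alternative isoforms in complex IV. Standard errors of the log2 fold changes had a median of 0.12 among the members in low dose vs. untreated, against 0.20 among all genes.

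For low dose vs. untreated, the median log2 fold change of the members was 0.11, against 0.01 for all genes tested, and 77 of 78 values were above 0 (98.7%, against 53.4% of all genes). For high dose vs. untreated the median was -0.01, against 0.00, with 36 of 78 above 0 (46.2%, against 50.8%). For high dose vs. low dose the median was -0.12, against -0.01, with 4 of 78 above 0 (5.13%, against 47.6%), namely Uqcr11, Cox7a2, Ndufs6 and Cox6b2. The 3 comparisons share their cultures, and the low dose cultures enter the first and the last. These medians turned on culture H. Without H, the median was 0.03 for low dose vs. untreated and -0.03 for high dose vs. low dose, and without A it was 0.17 and without P 0.07 for low dose vs. untreated.

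Low dose culture H held the highest value of the 12 cultures for 60 of 78 members, whereas 11.9% of all genes had their highest value there. The summed level of the members was 13054, 11934, 11755 and 11675 CPM in untreated cultures A, G, M and P, 12713, 15031, 11874 and 12351 CPM in low dose cultures B, H, N and Q, and 12212, 12349.6, 11259.9 and 12043 CPM in high dose cultures C, I, O and R. H lay above the other 11 cultures, which spanned 11259.9 to 13054 CPM, and those of the 3 conditions overlapped. Each complex was highest in H except complex II, whose highest sum was 904 CPM in B, against 825 CPM in H. The mean over the neuronal markers in H, 7.92, lay within the 7.42 to 8.10 of the cultures other than G, the mean over the ribosomal proteins, 8.08, within the 7.44 to 8.18 of all cultures, and the oligodendrocyte markers had their highest mean there, 9.98. The part of these in the level of the members was not tested.

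**Figure D1:**
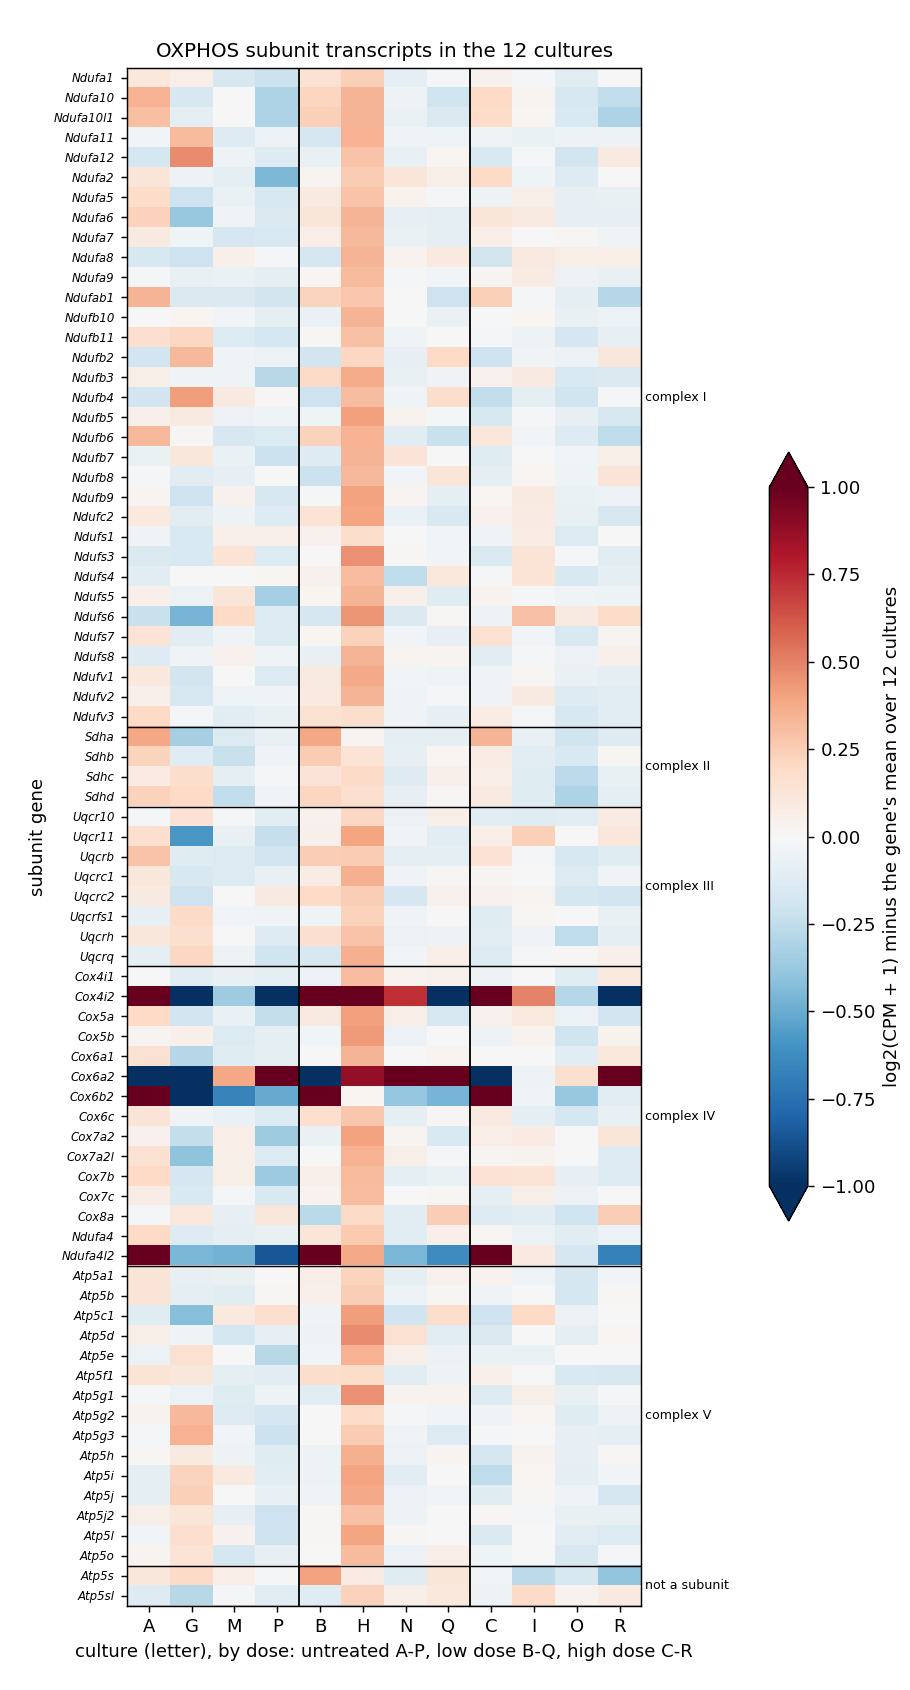
Levels of 77 of the 78 members tested (rows, by complex) in the 12 cultures (columns, by condition), as log2(CPM + 1) minus the member's mean over all cultures, with the colour scale ending at 1 in either direction. The column of low dose culture H is positive for nearly all members, and the 4 rows with the strongest colours are Cox4i2, Cox6a2, Cox6b2 and Ndufa4l2 of complex IV.

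Complex I, the largest complex of the chain, had 34 members, all tested. Their median log2 fold change was 0.11 for low dose vs. untreated (0.04 to 0.23), 0.00 for high dose vs. untreated (-0.16 to 0.24) and -0.11 for high dose vs. low dose (-0.21 to 0.09). In each member's values below, the cultures follow the order A, G, M, P (untreated), B, H, N, Q (low dose) and C, I, O, R (high dose). Ndufs1, the large iron-sulfur subunit through which electrons leave the NADH site, stood at 197, 181, 209 and 208 CPM in the untreated, 207, 228, 201 and 198 CPM in the low dose and 196, 212, 183 and 201 CPM in the high dose cultures. H was highest and G lowest, and the 3 conditions overlapped. The log2 fold change of Ndufs1 was 0.04 ± 0.08 (SE) for low dose vs. untreated, with a 95% interval from -0.14 to 0.23, and -0.03 ± 0.08 (SE) for high dose vs. untreated, with an interval from -0.22 to 0.15.

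Ndufv1, the flavoprotein that takes electrons from NADH, averaged 151 ± 14.2 CPM untreated, 169 ± 24.1 at the low dose and 152 ± 4.89 at the high dose (SD, n = 4). The differences between its conditions were smaller than the SD within the low dose condition. Ndufs6, a zinc-binding accessory subunit, had the highest SD outside the 4 isoforms (0.25) and stood at 18.2, 15.2, 24.5 and 19.4 CPM in the untreated, 18.9, 29.5, 19.3 and 21.6 CPM in the low dose and 20.7, 26.5, 22.8 and 24.4 CPM in the high dose cultures. G was lowest, H highest and I second, so that all 3 cultures of the G-H-I set stood at an end of the range. Its log2 fold change for high dose vs. untreated, 0.24 ± 0.18 (SE), was the largest of complex I in that comparison, with an interval from -0.15 to 0.63.

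Other accessory subunits of complex I were named because their p was among the smallest in a comparison. Ndufb7 had a log2 fold change of 0.20 ± 0.11 (SE) for low dose vs. untreated (unadjusted p = 0.1004, edgeR), and Ndufa2 one of 0.23 ± 0.13 (SE). Ndufa2 stood at 63.2, 55.7, 54.0 and 42.2 CPM in the untreated, 59.3, 69.2, 63.0 and 60.3 CPM in the low dose and 66.5, 56.3, 52.9 and 58.0 CPM in the high dose cultures. Its low dose cultures lay between 59.3 and 69.2 CPM, and the untreated range, widened by P at 42.2, overlapped them. Ndufb4 stood at 80.4, 123, 97.9 and 92.6 CPM in the untreated, 79.3, 114, 89.3 and 104 CPM in the low dose and 77.4, 86.2, 80.0 and 90.4 CPM in the high dose cultures. Within each letter set the high dose culture was below the untreated culture, with differences of -0.51 to -0.03 (log2), the largest in G-H-I, where G held the highest value of the 12. Ndufb5 averaged 84.5 ± 4.21 CPM untreated, 90.2 ± 14.3 at the low dose and 77.8 ± 3.99 at the high dose (SD, n = 4), with a log2 fold change of -0.21 ± 0.11 (SE) for high vs. low dose. Ndufa10 and Ndufa10l1 are near-identical copies whose reads may be shared, and Ndufa10l1 took 29.4% to 31.5% of their joint counts in every culture, so their separate values are uncertain.

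Complex II, succinate dehydrogenase, also belongs to the tricarboxylic acid cycle and is wholly encoded in the nucleus. Sdha, the flavoprotein that oxidises succinate, stood at 318, 193, 221 and 229.9 CPM in the untreated, 317, 247, 227 and 227 CPM in the low dose and 307, 231, 211 and 222 CPM in the high dose cultures. Cultures A, B and C, at 307 to 318 CPM, were above all other cultures, at 193 to 247 CPM, in every condition, and within A-B-C the values differed by less than 0.05 (log2). Sdhb, the iron-sulfur subunit, averaged 141 ± 19.2 CPM untreated, 152 ± 15.8 at the low dose and 139 ± 10.5 at the high dose (SD, n = 4). The membrane anchor Sdhd averaged 155 ± 23.6 CPM untreated, 159 ± 14.9 at the low dose and 139 ± 15.8 at the high dose (SD, n = 4), and the other anchor, Sdhc, 227 ± 18.3 CPM untreated, 231 ± 21.6 at the low dose and 207 ± 19.8 at the high dose (SD, n = 4). All 4 subunits were lower in the high dose than in the low dose culture of all 4 letter sets, and Sdhc and Sdhd were also lower at the high dose than untreated in all 4. The log2 fold changes of the complex for high dose vs. low dose ran from -0.19 to -0.06, and that of Sdhd was -0.19 ± 0.13 (SE), with an interval from -0.48 to 0.11.

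Complex III, the cytochrome bc1 complex, had 8 members with a median log2 fold change of 0.09 for low dose vs. untreated, -0.03 for high dose vs. untreated and -0.12 for high dose vs. low dose. Uqcrfs1, the Rieske iron-sulfur protein, stood at 112, 136, 117 and 116 CPM in the untreated, 116, 139, 116 and 118 CPM in the low dose and 109, 119.7, 118 and 113 CPM in the high dose cultures. Culture H was highest and G second, while the other 10 cultures lay between 109 and 119.7 CPM. Uqcrc1, a core subunit on the matrix side, averaged 225 ± 20.1 CPM untreated, 253 ± 31.9 at the low dose and 229 ± 11.4 at the high dose (SD, n = 4). Uqcr11, a small accessory subunit, stood at 196, 116, 166 and 148 CPM in the untreated, 181, 229, 170.3 and 161 CPM in the low dose and 183, 205, 174 and 189 CPM in the high dose cultures. G was lowest and H highest, and the log2 difference between them was 0.98, whereas in the other letter sets it was -0.12, 0.04 and 0.12. Uqcrh, the hinge protein at the cytochrome c1 side, had the smallest p of the complex for high dose vs. low dose, where its log2 fold change stood at -0.22 ± 0.11 (SE), with an interval from -0.45 to 0.02. It was at 125 to 152 CPM untreated, 131 to 166 at the low dose and 114 to 132 at the high dose, and these ranges overlapped.

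Complex IV, cytochrome c oxidase, had 17 members, 6 of them alternative isoforms. The other 11 were the usual subunits, with the supercomplex factor Cox7a2l counted among them. These 11 had a median log2 fold change of 0.13 for low dose vs. untreated, 0.02 for high dose vs. untreated and -0.12 for high dose vs. low dose. Cox4i1, the usual form of the regulatory subunit that binds ATP, stood at 335, 312, 318 and 314 CPM in the untreated, 322, 415, 343 and 345 CPM in the low dose and 323, 335, 310.4 and 359 CPM in the high dose cultures. H stood at 415 CPM and the other 11 cultures at 310.4 to 359 CPM. Cox5a, another nucleus-encoded structural subunit, averaged 174 ± 24.98 CPM untreated, 197 ± 32.7 at the low dose and 179 ± 15.5 at the high dose (SD, n = 4). Cox6a1, the usual liver-type form of subunit VIa, stood at 330.5, 245, 273 and 279 CPM in the untreated, 298, 378, 296 and 304 CPM in the low dose and 298, 297, 275 and 320.5 CPM in the high dose cultures. Its lowest culture was G and its highest H, and the other 3 low dose cultures lay between 296 and 304 CPM.

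Cox8a, the usual form of subunit VIII, averaged 335 ± 21.8 CPM untreated, 334 ± 55.3 at the low dose and 319 ± 46.5 at the high dose (SD, n = 4) and was the only member below 0 for low dose vs. untreated, at -0.01 ± 0.15 (SE). Q and R, at 387 CPM each, were the highest of their conditions, with H next at 373 CPM, while P at 354 CPM was close to G at 352 CPM. Cox7a2, the usual form of subunit VIIa, averaged 82.4 ± 11.9 CPM untreated, 93.3 ± 17.0 at the low dose and 93.4 ± 3.21 at the high dose (SD, n = 4), and Cox7a2l, which joins complexes into supercomplexes, averaged 166 ± 27.1 CPM untreated, 187 ± 23.6 at the low dose and 172 ± 9.13 at the high dose (SD, n = 4). Ndufa4, once counted to complex I and now placed in complex IV, averaged 229 ± 24.96 CPM untreated, 246 ± 26.5 at the low dose and 224 ± 8.64 at the high dose (SD, n = 4). None of these had an interval that left out 0.

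The 4 alternative isoforms that were tested had the largest SDs among the members, as given above. Cox6a2, the heart and muscle form of subunit VIa that in brain is known from parvalbumin interneurons, stood at 5.02, 0.584, 21.9 and 59.8 CPM in the untreated, 6.62, 31.4, 34.3 and 83.8 CPM in the low dose and 3.67, 15.9, 18.6 and 55.4 CPM in the high dose cultures. A, B and C were low, at 3.67 to 6.62 CPM, and P, Q and R were high, at 55.4 to 83.8 CPM. G was lowest at 0.58 CPM, on only 9 counts, and the conditions overlapped widely. Within each letter set, the low dose culture was the highest. The log2 fold change was 0.99 ± 0.96 (SE) for low dose vs. untreated and -0.81 ± 0.93 (SE) for high dose vs. low dose, with an interval from -2.87 to 1.25 for the latter.

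With the letter set as a block and culture G left out, Cox6a2 was the 1 member called for high dose vs. low dose, where 0.113% of the 12337 genes of that fit were called. Its log2 fold change there was -0.81 ± 0.08 (SE), with an interval from -1.001 to -0.624 and an adjusted p of 0.0071 (edgeR, quasi-likelihood). The labels do not say what a letter set is, and in the fit without the block the same difference had an adjusted p of 0.9999. Over all alternatives it ranged from 0.0071 to 1, and the log2 fold change from -1.39 without R to -0.39 without Q. With the block and G kept, 0 members were called, and the share over all genes in that fit is not given here. The block without G called 0 members for low dose vs. untreated (0% of all genes), where Cox6a2 had a log2 fold change of 0.56 ± 0.10 (SE) and an adjusted p of 0.644, the lowest of its alternatives. It called 0 for high dose vs. untreated (0.122%), where the value was -0.26 ± 0.10 (SE) and the adjusted p 0.432, again the lowest. The direction of this last difference turned with the fit, since it was 0.18 ± 0.95 (SE) without the block and 0.34 ± 0.73 (SE) with the block and G kept, and ran from -0.44 without R to 1.35 without P. The share of Cox6a2 in the joint counts of Cox6a2 and Cox6a1, which is not corrected for length and serves only to compare cultures, ran from 0.238% in G to 21.6% in Q.

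Parvalbumin transcripts, looked at after these values had been seen, did not follow Cox6a2 in every set. Pvalb stood at 10.5, 10.4, 33.9 and 23.3 CPM in the untreated, 10.9, 35.8, 25.8 and 26.4 CPM in the low dose and 13.4, 33.2, 31.5 and 40.9 CPM in the high dose cultures. A, B, C and G were low for both genes, but from A-B-C to P-Q-R the rank of the doses within a set differed: Pvalb was highest in the high dose culture of P-Q-R and A-B-C, in the low dose culture of G-H-I and in the untreated culture of M-N-O. The GABA-synthesising enzymes Gad1 and Gad2 were at 4.28 and 4.22 CPM in G and at 25.3 to 79.1 and 10.2 to 31.8 CPM in the other cultures. The part of the interneurons in the level of Cox6a2 was not tested.

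Cox4i2, the form of the regulatory subunit known from lung and from cells at low oxygen, stood at 11.7, 0.843, 2.54 and 0.166 CPM in the untreated, 14.9, 8.96, 6.53 and 0.206 CPM in the low dose and 13.9, 5.36, 2.71 and 0.496 CPM in the high dose cultures. A, B and C were highest, P, Q and R lowest with 2, 3 and 12 counts, and the conditions overlapped. In all 4 letter sets it was higher at the low dose and at the high dose than untreated, by 0.05 to 2.43 and by 0.07 to 1.79 (log2). Both were largest in G-H-I, where G held only 13 counts. The log2 fold change was 0.92 ± 1.26 (SE) for low dose vs. untreated and 0.45 ± 1.26 (SE) for high dose vs. untreated, each smaller than its error in the fit without a block, where the SE includes the differences between letter sets. With the letter set as a block, they were 1.37 ± 0.55 (SE), with an interval from 0.11 to 2.63, and 0.93 ± 0.55 (SE), with an interval from -0.34 to 2.19. With G left out of that fit, they were 0.81 ± 0.31 (SE), with an interval from 0.121 to 1.501, and 0.27 ± 0.31 (SE). The adjusted p for low dose vs. untreated was 0.86 with the block and 0.644 without G (edgeR), the latter the lowest of its alternatives, which reached 1. Leaving out 1 culture moved the low dose value between 0.34 without P and 2.85 without A, and the high dose value between -0.38 without C and 2.37 without A.

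Cox6b2, the form of subunit VIb known from testis, stood at 9.32, 1.49, 2.19 and 2.58 CPM in the untreated, 10.2, 4.14, 2.87 and 2.68 CPM in the low dose and 12.3, 3.91, 2.90 and 3.72 CPM in the high dose cultures. A, B and C stood at 9.32 to 12.3 CPM and the other cultures at 1.49 to 4.14 CPM. Ndufa4l2, a relative of Ndufa4 that is induced at low oxygen, stood at 4.72, 0.973, 0.960 and 0.499 CPM in the untreated, 5.002, 2.53, 0.979 and 0.757 CPM in the low dose and 4.44, 1.91, 1.42 and 0.703 CPM in the high dose cultures, again with A, B and C highest. Both were higher at the low dose than untreated in all 4 letter sets. In M-N-O and P-Q-R this rested for Ndufa4l2 on 15 counts in N against 14 in M and 11 in Q against 6 in P. The log2 fold changes of Cox6b2 and Ndufa4l2, 0.14 ± 0.63 (SE) and 0.16 ± 0.85 (SE), were under their errors. These values turned with 1 library: Cox6b2 ran from -0.36 without B to 1.22 without A, and Ndufa4l2 from -0.43 without B to 1.73 without A. With the letter set as a block they were 0.49 ± 0.24 (SE) and 0.50 ± 0.27 (SE), with intervals from -0.07 to 1.04 and from -0.13 to 1.14, and without G as well 0.23 ± 0.16 (SE) and 0.23 ± 0.25 (SE). Cox6b2 was also higher at the high dose than untreated in all 4 sets, by 0.36 ± 0.63 (SE) in the main fit. With the block this was 0.64 ± 0.24 (SE), with an interval from 0.09 to 1.19. Without G as well it was 0.40 ± 0.16 (SE), from 0.05 to 0.76. The adjusted p was 0.88 and 0.464 (edgeR). Leaving out 1 culture moved the main value between -0.25 without C and 1.42 without A. The share of Cox4i2 in the joint counts with Cox4i1 ran from 0.0529% to 4.44%, and that of Ndufa4l2 with Ndufa4 from 0.226% to 1.94%, both not corrected for length.

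**Figure D2:**
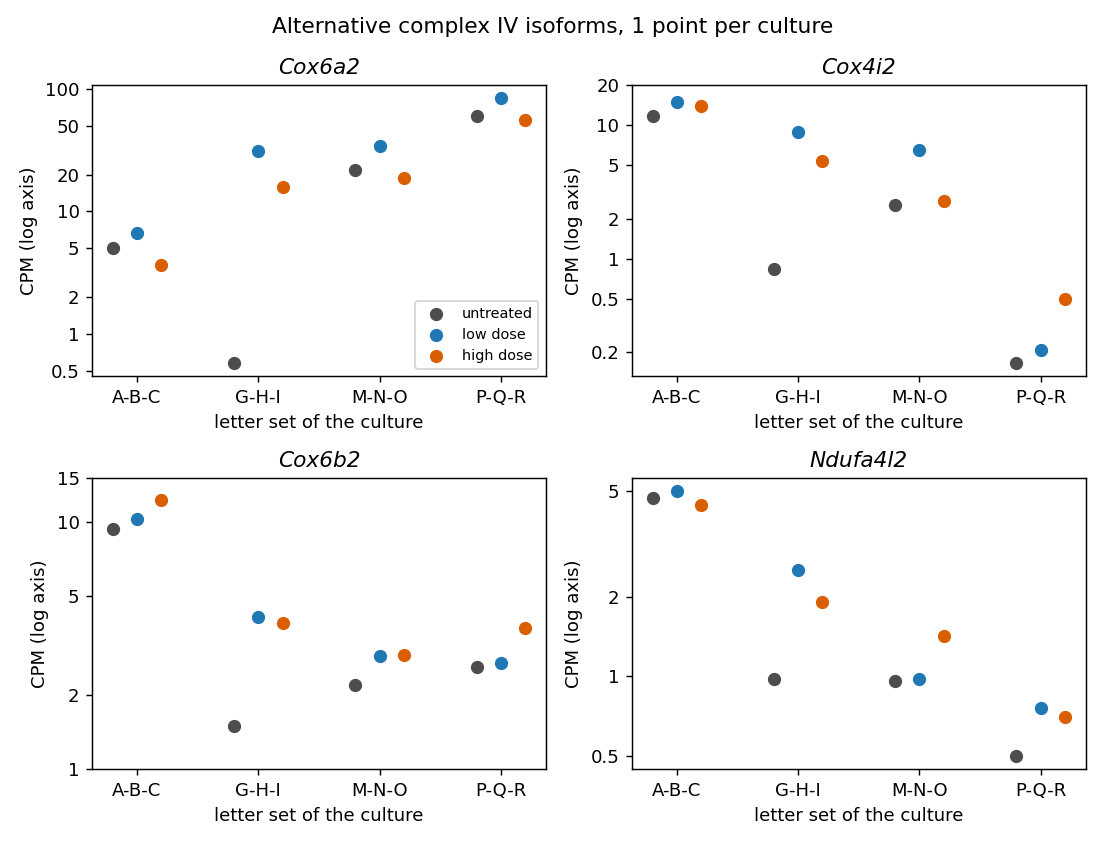
CPM (log axes) of the 4 alternative isoforms of complex IV that were tested, 1 point per culture, by letter set and coloured by condition. The A-B-C set holds the highest values of Cox4i2, Cox6b2 and Ndufa4l2 in all 3 conditions, whereas Cox6a2 is highest in P-Q-R and, within each set, in the low dose culture.

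Complex V had 15 members, all tested, with a median log2 fold change of 0.11 for low dose vs. untreated, -0.02 for high dose vs. untreated and -0.12 for high dose vs. low dose. Atp5b, the catalytic beta subunit of the ATP synthase, stood at 1576, 1353, 1334 and 1448 CPM in the untreated, 1489, 1704, 1382 and 1453 CPM in the low dose and 1407, 1437, 1269 and 1451 CPM in the high dose cultures. Culture H was highest and O lowest, and the conditions overlapped. Its log2 fold change was 0.05 ± 0.11 (SE) for low dose vs. untreated and -0.06 ± 0.11 (SE) for high dose vs. untreated, with intervals from -0.19 to 0.29 and from -0.30 to 0.17. Atp5a1, the alpha subunit, averaged 770.1 ± 52.8 CPM untreated, 806 ± 75.1 at the low dose and 746 ± 43.9 at the high dose (SD, n = 4), and its order of cultures was alike, with H highest and O lowest. All 15 members had a log2 fold change below 0 for high dose vs. low dose, from -0.21 to -0.08, and all 15 were lower in I than in H and in C than in B. Among all 78 members, 74 had such a value below 0, 78 were lower in I than in H and 57 were lower in C than in B.

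Atp5s and Atp5sl were not counted as subunits of complex V despite their symbols. Atp5s stood at 13.10, 13.82, 12.62 and 11.81 CPM in the untreated, 16.24, 12.79, 10.96 and 13.14 CPM in the low dose and 11.79, 9.877, 10.64 and 8.890 CPM in the high dose cultures. The high dose cultures, at 8.89 to 11.79 CPM, lay below the untreated cultures, at 11.81 to 13.82 CPM, without overlap, with C and P next to each other at the boundary. Its log2 fold change was -0.31 ± 0.15 (SE) for high dose vs. untreated and -0.37 ± 0.15 (SE) for high dose vs. low dose, the latter with an unadjusted p of 0.0331 and an adjusted p of 0.9999 (edgeR). Atp5sl stood at 32.7, 29.4, 35.4 and 33.3 CPM in the untreated, 32.9, 42.2, 37.3 and 38.5 CPM in the low dose and 34.5, 41.0, 36.7 and 38.1 CPM in the high dose cultures. It was higher than untreated in all 4 letter sets at both doses, with log2 fold changes of 0.18 ± 0.10 (SE) and 0.18 ± 0.10 (SE), and its conditions overlapped.

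**Figure D3:**
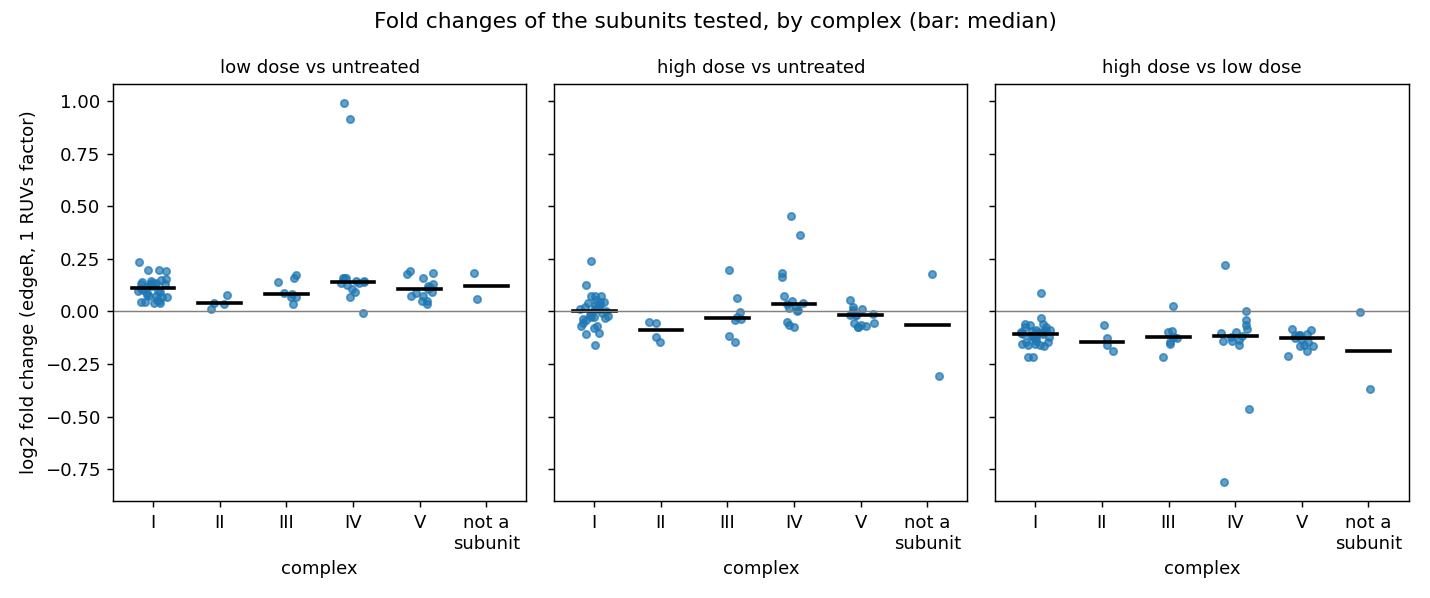
Log2 fold changes of the 78 members tested by complex, 1 point per member with the median as a bar, for the 3 comparisons. Of the 78 points, 77 lie above 0 for low dose vs. untreated and 74 below 0 for high dose vs. low dose, and the points farthest out in complex IV are Cox6a2 and Cox4i2 in these 2 comparisons and Cox4i2 and Cox6b2 for high dose vs. untreated.

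Without overlap between the 4 cultures of each condition were 0 members for low dose vs. untreated (0.407% of all genes), 1, Atp5s, for high dose vs. untreated (0.685%) and 0 for high dose vs. low dose (1.19%). Within letter sets, the members' median difference in log2(CPM + 1) for low dose vs. untreated was largest in G-H-I, at 0.36, followed by 0.11 in P-Q-R, 0.01 in M-N-O and -0.03 in A-B-C. Of the 78 members, 71 were higher in H than in G, the culture with few neuronal transcripts. For high dose vs. untreated, the medians were 0.08, 0.07, -0.05 and -0.07 in the same order, without a common sign. For high dose vs. low dose they were -0.31, -0.03, -0.07 and -0.05, and all 78 members were lower in I than in H.

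Counted by member, 9 of 78 were higher at the low dose than untreated in all 4 sets (11.5%, against 4.06% of all genes) and 0 were lower (5.28%). The 9 were Ndufa1, Ndufa9, Sdhb, Atp5e, Atp5sl and the 4 alternative isoforms of complex IV. Among these, Cox4i2 rested in P-Q-R on 3 counts against 2, and Ndufa4l2 in M-N-O on 15 against 14. At the high dose vs. untreated, 4 were higher in all sets (5.22% of all genes), namely Ndufa9, Atp5sl, Cox4i2 and Cox6b2. Another 7 were lower (5.22%): Atp5f1, Sdhc, Sdhd, Atp5j, Ndufb5, Ndufb4 and Atp5s. For high dose vs. low dose, 37 of 78 were lower in all 4 sets (47.4%, against 11.1% of all genes) and 0 were higher (11.7%). The members were measured in the same cultures, so these counts are not independent observations of the dose.

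Those 37 came from every complex: 14 of 34 in complex I, 4 of 4 in complex II, 4 of 8 in complex III, 5 of 15 in complex IV, 9 of 15 in complex V, and Atp5s. In the 3 sets other than G-H-I, chosen after the data had been seen, the counts were 9 higher for low dose vs. untreated (13.9% of all genes), 16 lower for high dose vs. untreated (14.5%) and 37 lower for high dose vs. low dose (15.6%). With the letter set as a block and G left out, an unadjusted p under 0.05 was reached by 2 members for low dose vs. untreated (7.54% of all genes), by 4 for high dose vs. untreated (9.43%) and by 16 for high dose vs. low dose (13.6%). Of the members, these were 20.5% in the last comparison, and Cox6a2 alone passed the adjustment.

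**Figure D4:**
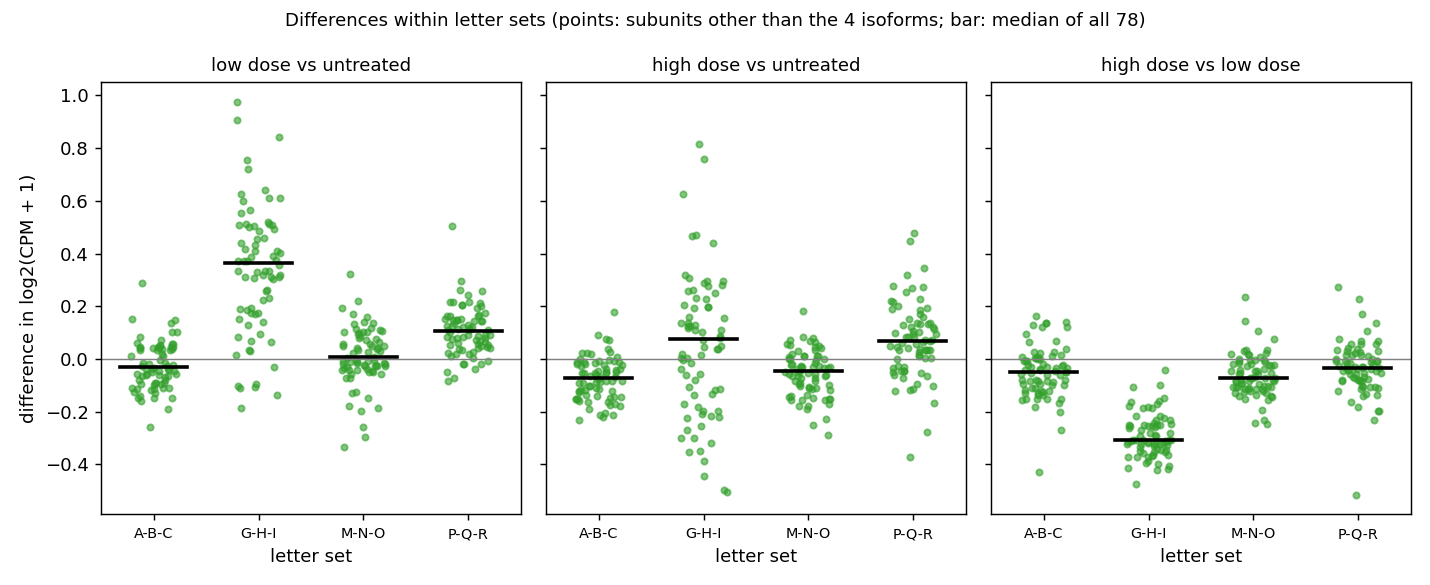
Differences in log2(CPM + 1) between the cultures of each letter set for the 3 comparisons, 1 point per member other than the 4 isoforms, with the median of all 78 members as a bar. The points of G-H-I spread most in both comparisons with the untreated cultures. For high dose vs. low dose they lie below 0 throughout, where the medians of the other sets are between -0.07 and -0.03.

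Genes that assemble, feed or regulate the chain were compared as lists. Of the assembly factors, 38 of 38 were tested and none had an unadjusted p under 0.05 in either direction in any comparison, with median log2 fold changes of 0.07 at the low and -0.01 at the high dose against untreated, and of -0.08 between the doses (high against low). The lists after it are given in this order. Cytochrome c and the subunits outside the symbol rule, 3 genes with Cyc1 and Usmg5 among them, had medians of 0.13, 0.03 and -0.05. The mitochondrial carriers and porins, 9 of 11 tested, had medians of 0.07, -0.03 and -0.08. None of these genes had an unadjusted p under 0.05 either.

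The 13 enzymes of the tricarboxylic acid cycle had medians of 0.01, -0.07 and -0.09, and for high dose vs. untreated all 13 values were below 0, of which 0 had an unadjusted p under 0.05. For high dose vs. low dose, 7 of the 13 were lower in all 4 letter sets and 0 higher, beside 37 and 0 of the 78 members. The mean over the 13 enzymes was highest in A, B and C, at 7.47, 7.47 and 7.41 (log2), and lowest in O at 7.11. The 14 regulators of mitochondrial biogenesis had medians of -0.07, -0.07 and 0.02, and their mean over genes was lowest in H, at 4.27, where the OXPHOS members were highest. Ppara, a nuclear receptor for fatty acids, was at 1.11 CPM in H and 5.25 CPM in G. The cytosolic ribosomal proteins, 81 of 82 tested, had medians of 0.12, 0.00 and -0.12. Like most members, 79 of the 81 were above 0 for low dose vs. untreated and 77 below 0 for high dose vs. low dose. By letter set they differed from the members for low dose vs. untreated: their median difference was largest in M-N-O, at 0.28, and -0.04 in G-H-I, where the members had their largest, 0.36. For high dose vs. low dose their median in G-H-I was -0.25, against -0.31 for the members. In that comparison, 20 of the 81 were lower in all 4 sets and 2 higher.

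Glycolysis and lactate handling, 22 genes, had medians of 0.08, -0.07 and -0.15, with SEs of 0.37 to 0.38 in the median and none with an unadjusted p under 0.05. The mean over these genes was 9.35, 7.61, 8.45 and 7.81 (log2) in A, G, M and P, 9.21, 8.72, 8.62 and 7.86 in B, H, N and Q, and 9.21, 8.38, 8.21 and 7.91 in C, I, O and R. A, B and C were highest in each condition, and the conditions overlapped. Among genes picked after their values were seen, the glucose transporter Slc2a3 was at 481 to 613 CPM in A, B and C and at 27.8 to 149.5 CPM elsewhere, and the hexokinase Hk2 at 89.4 to 129 CPM against 7.22 to 44.1 CPM. The cultures high for this list were thus those high for Cox4i2, Cox6b2, Ndufa4l2 and Sdha and, beside G, low for Cox6a2. These cultures had oligodendrocyte marker means of 6.69 to 7.39, against 7.37 to 9.98 elsewhere, and precursor cell means of 4.87 to 5.45 against 6.27 to 6.93. Their part in the level of the isoforms was not tested.

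**Figure D5:**
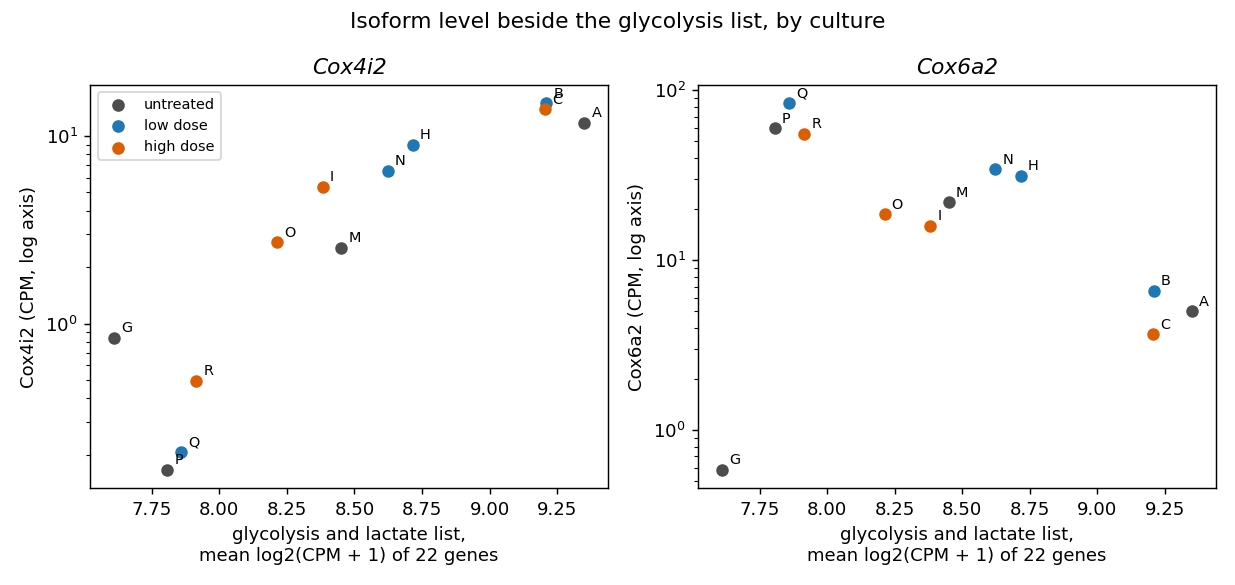
CPM (log axes) of Cox4i2 and Cox6a2 in each of the 12 cultures against the mean log2(CPM + 1) of the 22 glycolysis and lactate genes, coloured by condition. Cultures A, B and C lie at the right with a mean of 9.21 to 9.35, high for Cox4i2 and low for Cox6a2, and G lies at the left, low for both.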

How the data were processed

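RNA of 12 cultures was sequenced by the authors as poly(A) libraries, mapped with STAR to rat build rn6, and summed per gene by featureCounts. Deposited were raw counts per gene symbol and culture, without normalization, and 0 columns were left unused. Conditions were taken from the dose in the labels.

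The test followed the study's outline but did not recover the genes that the study called. In R 4.3.3 with edgeR 4.0.16, counts were scaled by TMM, 12271 of 17337 genes were kept by filterByExpr, and 1 unwanted factor came from the RUVs formula, written anew since neither the procedure nor the number of factors is given in the sources used here. The factor was -2.96 in culture G and -0.49 to 0.70 in the others, so it mainly set G apart. Letter sets did not enter this main fit. The quasi-likelihood test was fitted on all genes and cultures, with Benjamini-Hochberg adjustment over all genes, and a gene was called at an adjusted p below 0.05 with a log2 fold change beyond 0.5, up or down. Standard errors and 95% intervals were derived from the quasi-likelihood statistics. CPM use the TMM-scaled library sizes, and per-culture means use log2(CPM + 1). The test was checked on simulated counts, drawn independently for each culture and with changes larger than those of any member. These held no letter sets and no culture like G, so the check does not cover such structure or small shifts.

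Members were found by symbol; 64 of 81 matched a current symbol of the reference and 17 an older one. No genome of build rn6 was used, so coordinates, sequences and gene lengths are not given and levels are not compared between genes. Overlapping or near-identical genes can share reads, and depth sets counting error only.

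Named were the isoforms with their usual partners, core subunits of each complex, the 3 members with the smallest p per comparison and direction, the 3 with the largest SD and every member called; 1 of these genes is not reported here. Outside the members, the rule also held the gene with the smallest p in each list, most of which are not given. The members, lists and tests were chosen with earlier results of these data known. Alternatives were no factor, 2 factors, the letter set as a block with and without culture G, the likelihood ratio test of edgeR, DESeq2 1.42.0, its size factors, no filter on low counts, each culture left out in turn and, chosen after the data were seen, G and H left out together and the members without the isoforms and the non-subunits. Limma 3.58.1 was loaded with edgeR and ran no test.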

Additional observations from a re-analysis of the deposited data

Results flagged for a closer look

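In groups of 4 cultures, a culture was singled out when its gap to the nearest other culture, divided by the range of the group, was above Dixon's 95% critical value, which chance gives in about 1 of 20 groups. Of 114 groups checked (38 values in each of 3 conditions), 7 were singled out, near the number that this chance rate gives for independent groups. These groups share their cultures and are not independent, so the count does not tell whether chance gave it. In the low dose condition this was culture H for Cox6a1, at 378 CPM against 296 to 304 in the others, for Uqcrfs1, at 139 CPM against 115.5 to 118, and for Ndufb5, at 111.5 CPM against 81.3 to 85.6. In the untreated condition it was culture A for Cox6b2, at 9.32 CPM against 1.49 to 2.58, for Ndufa4, at 267 CPM against 213 to 221, and for Ndufa4l2, at 4.72 CPM against 0.50 to 0.97. In the high dose condition it was culture C for Cox6b2, at 12.3 CPM against 2.90 to 3.91.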

How the results depend on the processing

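The count of members called was 0 in the 3 comparisons under all alternatives except the letter-set block without culture G. That fit called 1, Cox6a2, for high dose vs. low dose (0.113% of all genes). The share of all genes called is not given for the other alternatives. The number with an unadjusted p under 0.05 moved: for low dose vs. untreated from 0 to 1 with 2 factors and to 2 with the letter-set block, with or without G. For high dose vs. untreated it went from 0 to 1 with 2 factors, to 3 with the block and to 4 with the block without G. For high dose vs. low dose it went from 1 to 2 with 2 factors, to 5 with the block, to 16 with the block without G and to 0 with the likelihood ratio test. The cause of these moves was not tested. The share of all genes with such a p moved as well. It was 0.742%, 1.19% and 1.17% in the main fit and 7.54%, 9.43% and 13.6% with the block without G. For the other alternatives, also those with 1 culture left out, this share is not given. Their counts therefore do not set the members apart from all genes. Leaving out each culture in turn gave 0 to 2, 0 to 1 and 0 to 3 members. For the last, it was 3 without G, 2 without B or without N, and 0 without I, O or R; for the first, 2 without A or without B and 1 without G; and for high dose vs. untreated, 1 without A or without C.

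The median log2 fold change of the members ranged from 0.02 to 0.17 (low dose vs. untreated), -0.06 to 0.03 (high dose vs. untreated) and -0.16 to -0.03 (high vs. low dose). The first was 0.03 without H, 0.02 without G and H, 0.06 with the block without G, 0.07 without P and 0.17 without A, and the last was -0.03 without H and -0.04 without G and H. Of 651 values of 31 named genes per comparison, 46, 44 and 22 had another sign than reported, 0 of them called. Labels give no pairing, so letter sets serve only as an alternative block. Cox8b, with 15 counts or fewer per culture, and Cox8c and Cox6c-ps1, with 0, were not tested. Low counts limit the precision of Cox4i2 in G, P, Q and R, of Cox6a2 in G and of Ndufa4l2 in G, M, N, P, Q and R.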
